A study of Homo sapiens with 16 samples.

Results

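Binding of MED1 was examined at 10 genes of the AP-1 and ERK response, namely FOSL1, FOSL2, JUN, JUNB, IER3, DUSP5, PHLDA1, KLF6, HBEGF and MCL1. The members are all deposited MED1 peaks that overlap a fixed hg19 window of 100 to 120 kb around each gene. They number 40 of the 3464 peaks in 6 lists, and merging peaks that overlap gave 14 regions of 1584. Of the 10 windows, 4 held a peak in some list (IER3, PHLDA1, FOSL1 and KLF6) and 6 held none in any list.

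The libraries are MED1 ChIP-seq of HCT116, a human colorectal carcinoma line, with 8 MED1 libraries and 8 inputs among the 16 samples. Wild-type (WT) cells received DMSO or Nutlin-3a, each for 1 h, and 2 MED1 libraries stand behind each of their joint lists. Nutlin-3a frees p53 from its inhibitor MDM2 and so switches on p53 signalling. The MED14-AID cells are a CRISPR/Cas9-edited HCT116 derivative of genotype OsTir1+/-;Med14-AID+/+, in which auxin directs the Mediator subunit MED14 to degradation. Both edits, OsTir1 and Med14-AID, were present in their mock samples too. They received water or 500 µM auxin for 3 h, alone or followed by Nutlin-3a for 1 h, and each of these 4 lists comes from 1 MED1 library. The lists hold no read counts, so depth is unknown. With 1 list per condition the spread between cultures is not known, and no test between conditions was made. Intervals cover the counting of peaks only, and a position without a peak may still bind MED1 below the authors' threshold.

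MED1 is a subunit of Mediator, the complex through which transcription factors at enhancers reach RNA polymerase II. AP-1 is a family of dimers of Jun and Fos proteins, and it is a major end point of the MEK and ERK kinase cascade. Growth factor signals switch on a fast set of genes through that cascade, among them AP-1 subunits, growth factor ligands and the feedback inhibitors of ERK itself.

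RefSeq promoters (GRCh38.p14) were at hand for 6 of the 10 genes, FOSL2, JUN, JUNB, PHLDA1, KLF6 and HBEGF. The 250 bases before the start are given for KLF6 and PHLDA1, whose windows held MED1 peaks, and for JUN, whose window held none. The peaks are in hg19, so whether a peak covers these bases was not determined. All lie on the minus strand and read 5′ to 3′. Capitals mark GGAAG (the core bound by ETS factors, CTTCC on the other strand), CACGTG (an E-box) and TGACATCA (an AP-1 and CRE-like element known from the JUN promoter, added after the sequences were read).

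KLF6: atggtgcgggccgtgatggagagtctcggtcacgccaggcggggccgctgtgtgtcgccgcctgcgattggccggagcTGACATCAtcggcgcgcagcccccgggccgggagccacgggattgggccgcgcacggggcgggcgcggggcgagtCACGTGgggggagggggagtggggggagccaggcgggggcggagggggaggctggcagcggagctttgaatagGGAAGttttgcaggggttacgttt

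PHLDA1: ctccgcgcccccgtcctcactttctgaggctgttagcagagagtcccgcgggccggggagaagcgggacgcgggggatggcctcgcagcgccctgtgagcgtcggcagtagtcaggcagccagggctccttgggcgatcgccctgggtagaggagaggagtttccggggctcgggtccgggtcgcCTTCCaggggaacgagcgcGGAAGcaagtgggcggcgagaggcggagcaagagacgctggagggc

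JUN: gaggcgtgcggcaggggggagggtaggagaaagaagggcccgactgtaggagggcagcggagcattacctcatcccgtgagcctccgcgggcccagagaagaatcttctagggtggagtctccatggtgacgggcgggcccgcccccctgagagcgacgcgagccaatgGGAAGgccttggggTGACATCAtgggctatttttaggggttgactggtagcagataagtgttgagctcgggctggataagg

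The element TGACATCA was found in JUN, from 67 to 60 bases before the start, and in KLF6, from 172 to 165 bases before it. It occurs in 2.37% of 35116 promoters of the same length, searched on both strands. KLF6 also held CACGTG from 97 to 92 bases before the start, a motif found in 6.34% of promoters. PHLDA1 held the ETS core at 2 places, JUN at 1 and KLF6 at 1, and 65.1% of all promoters hold it. JUNB held it at 4 places and FOSL2 and HBEGF at 2 each, and the windows of these genes held no peak. None of the 6 promoters held TGANTCA (6.57% of promoters), TGACGTCA (1.65%) or a serum response element (1.16%). No matches overlapped in the printed sequences. These are matches of letters, and binding at them was not measured.

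The WT lists held 12 of these peaks with DMSO (1.08% of 1106) and 13 with Nutlin-3a (1.04% of 1254). In MED14-AID cells the counts were 6 with water (1.30% of 463) and 7 with water and Nutlin-3a (1.34% of 522). Each auxin list held 1 (of 53 without and 66 with Nutlin-3a). IER3 accounts for 18 of the 40 peaks, PHLDA1 for 12, and FOSL1 and KLF6 for 5 each. FOSL1 and KLF6 peaks were listed in WT cells only, PHLDA1 peaks in WT and in water-treated MED14-AID cells, and IER3 peaks in all 6 lists. Regions are numbered along the chromosome within each window.

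**Figure D1:**
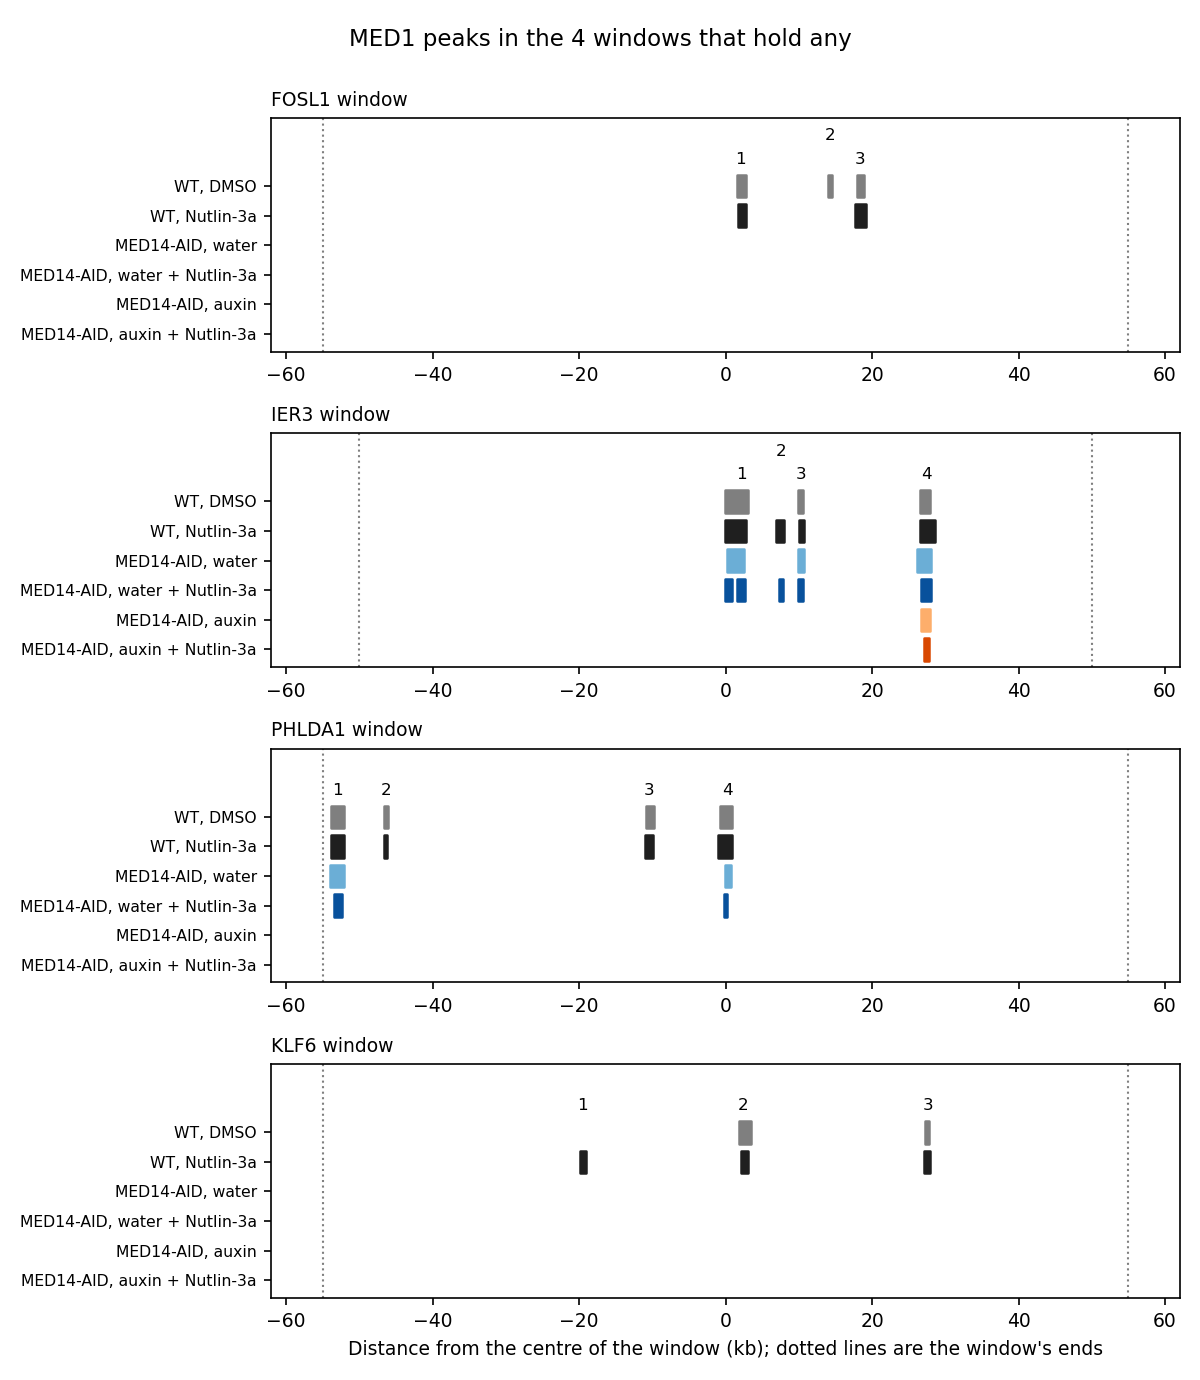
MED1 peaks in the FOSL1, IER3, PHLDA1 and KLF6 windows, drawn to scale as distance from the centre of each window in kb, with 1 row per list and region numbers above. The region IER3-4 has a bar in all 6 rows, and the FOSL1 and KLF6 windows have bars only in the WT rows. In the row for water, IER3-1 is 2 peaks that are too close to be told apart here.

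Of the AP-1 subunits, only FOSL1, which encodes a Fos family partner of Jun proteins, had peaks in its window. FOSL1-1 (chr11:65666567-65667832) lay near the middle of the window. The authors' fold enrichment over background was 3.53 with DMSO and 2.98 with Nutlin-3a. This region was in the middle of the DMSO list and low in the Nutlin-3a list, at rank 496 of 1106 and 1004 of 1254 by −log10 q. FOSL1-3 (chr11:65682659-65684207) had folds of 3.66 and 2.63. Its ranks were 445 with DMSO and 940 with Nutlin-3a. FOSL1-2 (chr11:65678994-65679502) was listed with DMSO alone, with a fold of 2.70 and a −log10 q of 4.75. It was among the weaker peaks of that list, with 16.9% of the list below it.

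IER3, an immediate early gene that modulates survival and ERK signalling, had the most MED1 peaks when the 6 lists are pooled. In single WT lists it did not lead, with 3 peaks against 4 at PHLDA1 with DMSO, and 4 at each with Nutlin-3a. IER3-1 (chr6:30709868-30713014) was present in all 4 lists without auxin. WT cells showed it as 1 broad peak, 3122 bp wide with DMSO and 2863 bp with Nutlin-3a, at folds of 5.11 and 6.29. In MED14-AID cells the same stretch was listed as 2 peaks. With water alone their folds were 4.56 and 4.99, and with water and Nutlin-3a 4.52 and 4.25. The WT summits, at 30712301 and 30712223, lay beside the second of each pair, at 30712158 and 30712235. The first of each pair had its summit at 30710685 and 30710303, inside the broad WT peaks.

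IER3-2 (chr6:30716916-30717914) was the one region listed with Nutlin-3a and not without it in both cell lines. Its fold was 2.71 in WT cells with Nutlin-3a and 3.46 in water-treated MED14-AID cells with Nutlin-3a. Both peaks were weak within their lists, at rank 960 of 1254 and 479 of 522 by −log10 q. Over the genome, 20 of 1584 regions (1.26%) were listed in exactly these 2 lists. It was not listed with auxin and Nutlin-3a.

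IER3-3 (chr6:30719819-30720756) was listed in WT cells with DMSO (fold 2.78) and with Nutlin-3a (3.71). In MED14-AID cells its fold was 3.54 with water alone and 2.96 when Nutlin-3a followed. Its place by −log10 q was above the median only in the WT Nutlin-3a list, at rank 440 of 1254. IER3-1, IER3-2 and IER3-3 are separated by 3.90 and 1.90 kb, and where peaks up to 12500 bp apart are joined those present in a list form 1 stretch, of 10468 to 10852 bp over the 4 lists without auxin, with IER3-2 in it only in the Nutlin-3a lists.

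IER3-4 (chr6:30736145-30738566), 15.4 kb beyond IER3-3, was the one region of the 10 windows listed in all 6 lists, as were 31 of 1584 regions (1.96%) over the genome. Its fold was 9.47 with DMSO and 6.96 with Nutlin-3a in WT cells. In MED14-AID cells it was 8.38 with water, and 10.3 when Nutlin-3a followed water. With auxin it was 6.86, and with auxin and Nutlin-3a 5.17. It ranked high in the lists without auxin, at 24 of 1106, 52 of 1254, 35 of 463 and 23 of 522 by −log10 q. In the short auxin lists it stood nearer the middle, at 17 of 53 and 31 of 66. The 6 summits lay within 148 bp of one another. By gene order in RefSeq the coding neighbours of IER3 are FLOT1 and DDR1, and none of the 4 regions was assigned to a gene.

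PHLDA1, which encodes a pleckstrin homology-like protein induced by growth factors through ERK, had 4 regions. PHLDA1-1 (chr12:76371050-76372948) was the strongest, at folds of 5.77 with DMSO, 9.02 with Nutlin-3a, 6.68 with water, and 6.45 when Nutlin-3a followed water. By −log10 q it ranked 87 of 1106, 68 of 1254, 88 of 463 and 115 of 522. It was in neither auxin list. This region lies just 1.05 kb inside the start of the window, so its membership rests on where the window was drawn. PHLDA1-4 (chr12:76423931-76425906) lay at the centre of the window and was also in all 4 lists without auxin. Its fold was 4.80 with DMSO and 4.48 with Nutlin-3a in WT cells, and 4.34 with water, and 3.64 when Nutlin-3a followed water. It was narrower in MED14-AID cells, at 716 and 500 bp against 1640 and 1976 bp in WT cells.

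The other 2 PHLDA1 regions were listed in WT cells only. PHLDA1-3 (chr12:76413987-76415241) had folds of 4.15 with DMSO and 4.55 with Nutlin-3a. It was in the upper part of both lists, with 71.9% and 69.1% of peaks below it by −log10 q. PHLDA1-2 (chr12:76378313-76378892) was weak, with folds of 2.77 and 3.32. Of the 7 WT DMSO regions that had no MED14-AID peak with water, PHLDA1-3 thus had the highest −log10 q, 16.6, followed by FOSL1-3 at 11.9.

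KLF6, which encodes a zinc-finger transcription factor, had 3 regions, listed in WT cells only. KLF6-2 (chr10:3826804-3828482), near the centre of the window, had folds of 3.20 with DMSO and 3.18 with Nutlin-3a. KLF6-3 (chr10:3852080-3852876) had folds of 2.29 and 3.33. Its rank by −log10 q was 965 of 1106 with DMSO and 573 of 1254 with Nutlin-3a, near the bottom of the first list and in the middle of the second. KLF6-1 (chr10:3805125-3805888) was listed with Nutlin-3a alone, with a fold of 2.77 and rank 876 of 1254. Unlike the first 3 regions of IER3, the KLF6 regions were too far apart to be joined at 12500 bp, with gaps of 20.9 and 23.6 kb.

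**Figure D2:**
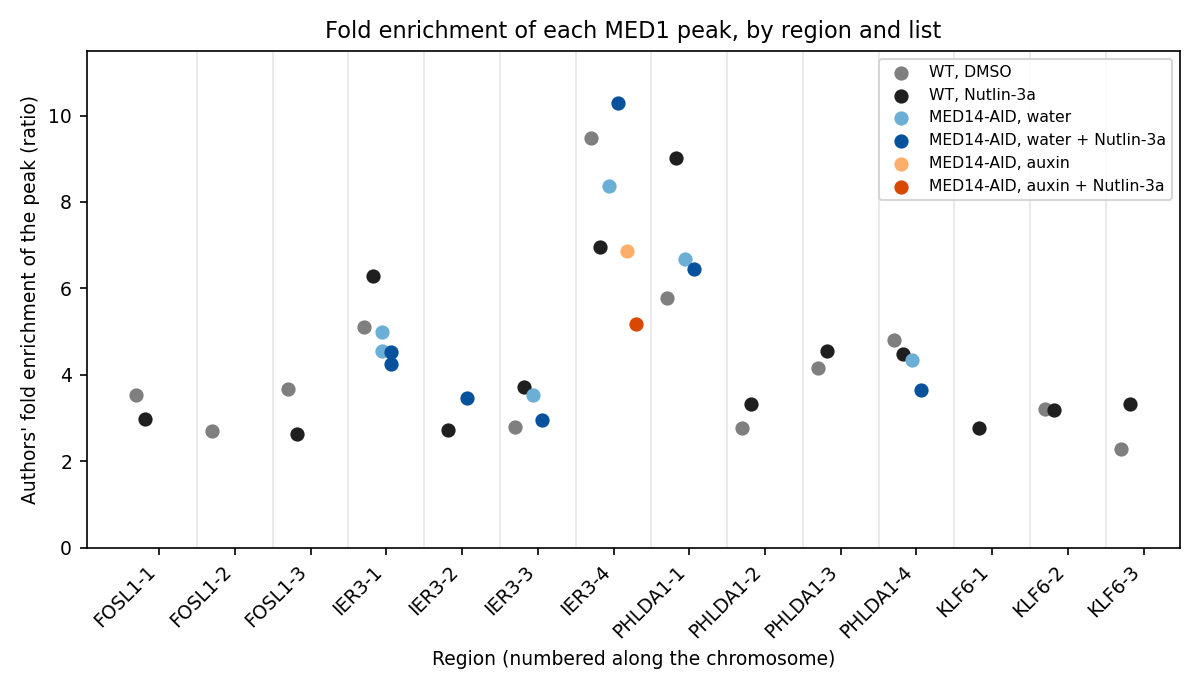
The authors' fold enrichment (a ratio, y axis) of each of the 40 peaks, by region (x axis), with 1 point per peak and a colour per list. IER3-4 and PHLDA1-1 hold the highest points, up to 10.3 and 9.02, and the FOSL1 and KLF6 points lie between 2.29 and 3.66. Folds describe a peak within its own list.

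No list had a peak in the windows of JUN and JUNB, which encode Jun family subunits, or of FOSL2, a Fos family subunit. The same holds for DUSP5, a nuclear phosphatase that inactivates ERK, HBEGF, a ligand of the EGF receptor, and MCL1, an anti-apoptotic member of the BCL2 family. These windows were chr1:59200000-59300000 for JUN, chr19:12850000-12950000 for JUNB and chr2:28570000-28690000 for FOSL2. They were chr10:112210000-112320000 for DUSP5, chr5:139660000-139780000 for HBEGF and chr1:150500000-150600000 for MCL1. The nearest listed peak outside the window was 4829 kb away for JUN, 1749 kb for HBEGF, 641 kb for MCL1, 284 kb for FOSL2 and 106 kb for JUNB. DUSP5 was the exception, with a pair of weak WT Nutlin-3a peaks 35.3 and 39.3 kb before its window (chr10:112174199-112174744, fold 2.29, and chr10:112170155-112170655, fold 2.39). Neither was in another list. The lowest −log10 q of a list was between 1.58 and 2.76, and the lowest fold between 1.31 and 1.72. These can belong to different peaks. In the auxin list without Nutlin-3a, the peak with the lowest fold, 1.72, had a −log10 q of 7.28. The lowest fold is thus not a limit of detection, and what is known of these windows is that nothing in them passed the authors' calling.

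Peaks also lay just outside windows that held some. Past the end of the IER3 window, a peak at chr6:30781347-30783447 (WT DMSO, fold 5.74) overlapped a peak of each of the other 3 lists without auxin. Before the PHLDA1 window, WT cells had peaks 15.7, 21.7 and 30.8 kb away with DMSO and 15.6, 21.5 and 30.8 kb away with Nutlin-3a. Past the KLF6 window 1 peak was listed with DMSO, 14.6 kb away.

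Within their own lists the peaks were spread from the bottom to the top. Their median fold was 3.60 with DMSO against 3.19 for the whole list, and 3.33 against 3.41 with Nutlin-3a. With water it was 4.78 against 4.38, and with water and Nutlin-3a 4.25 against 4.25. By −log10 q, 8 of 12, 7 of 13, 4 of 6 and 3 of 7 peaks were above the median of their list. Only IER3-1, IER3-4 and PHLDA1-1 reached a fold of 5 or more. The median width of all peaks in the windows was 1208 bp against 760 bp for the list with DMSO and 1113 bp against 818 bp with Nutlin-3a. With water the medians were 1080 and 833 bp, and with water and Nutlin-3a 959 and 830 bp.

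**Figure D3:**
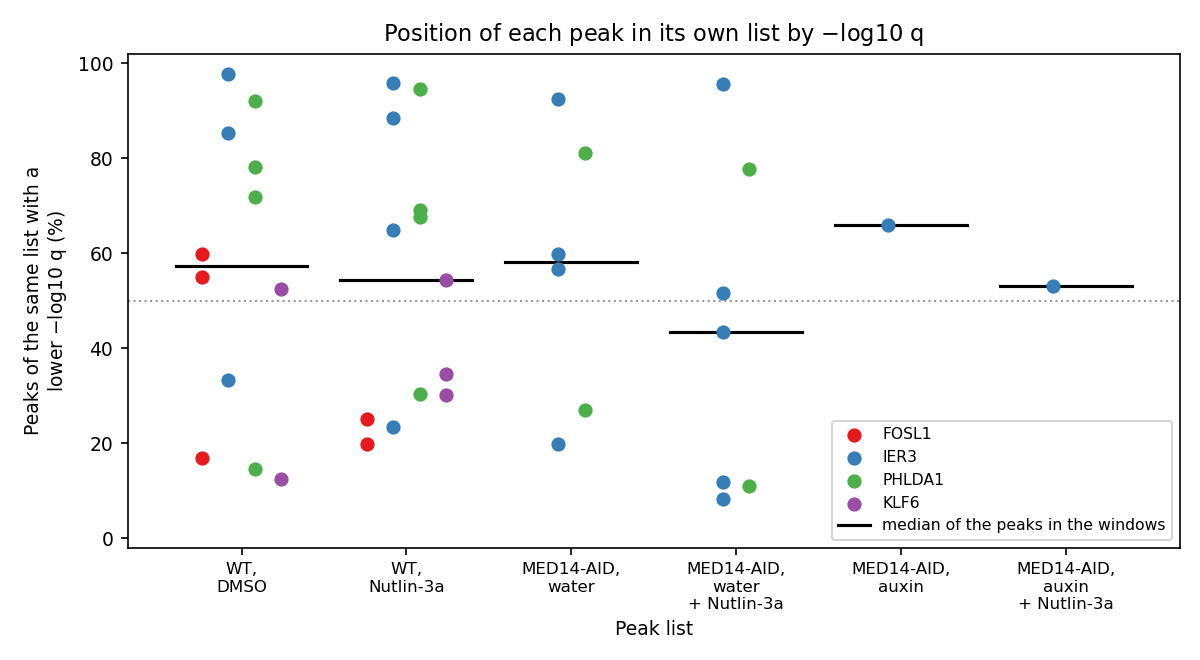
For each peak, the percentage of peaks in the same list with a lower −log10 q (y axis), by list (x axis), coloured by gene, with a bar at the median of the peaks in the windows and a dotted line at 50%. The medians are 57.4%, 54.3%, 58.2% and 43.5% in the 4 lists without auxin, and each auxin list has 1 point, at 66.0% and 53.0%.

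Regions were made by merging peaks that overlap, so the summits of a region lie near one another partly by design. In the 11 regions seen in 2 or more lists, leaving out IER3-1 with its double peaks, summits differed by 5 to 273 bp, with a median of 119 bp. In IER3-1 they spanned 1998 bp. A neighbouring peak within 12500 bp was found for 9 of 12 peaks with DMSO (75.0%, against 46.2% of the list) and for 7 of 13 with Nutlin-3a (53.8% against 52.0%). With water it was found for 3 of 6 (50.0% against 55.9%) and with water and Nutlin-3a for 4 of 7 (57.1% against 57.3%). The higher DMSO share includes all 3 FOSL1 peaks, which FOSL1-2 links into 1 stretch of 17284 bp.

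To ask whether p53 induction changed where MED1 was listed at these genes, Nutlin-3a lists were set against those without it. In WT cells 2 of the 13 peaks listed with Nutlin-3a (15.4%, Wilson 95% interval 4.33 to 42.2%) had no counterpart with DMSO, beside 35.0% of the whole list. They are IER3-2 and KLF6-1. Of the 12 peaks listed with DMSO, 1 (8.33%, 1.49 to 35.4%) had no counterpart with Nutlin-3a, beside 26.5% of the list, and it is FOSL1-2. The list's share lies inside the interval in both directions. All 3 are below the median of their lists by −log10 q. Of the peaks above the list's median, 0 of 7 and 0 of 8 were absent from the other list, beside 12.6% and 6.69% of all peaks above it.

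In the water-treated MED14-AID cells, 1 of the 7 Nutlin-3a peaks (14.3%, 2.57 to 51.3%) was absent without it, beside 31.2% of the list. It is IER3-2 again. None of the 6 peaks without Nutlin-3a was absent with it (0%, 0 to 39.0%), beside 22.5% of the list. The 5 regions listed both with and without Nutlin-3a in these cells are IER3-1, IER3-3, IER3-4, PHLDA1-1 and PHLDA1-4. Joined with its neighbours, IER3-2 is part of a stretch that was listed in both, and the Nutlin-only share is then 0% here and 1 of 9 stretches (11.1%) in WT cells. Other settings gave higher shares, but the whole list's shares under the −log10 q minimum, reciprocal overlap or equal lengths are not given here. Shares under those settings therefore cannot be set beside the list. The Nutlin-only share in WT cells was 30.8% (4 of 13) with a −log10 q of 5 or more required in both lists, and 25.0% (5 of 20) with windows widened by 50 kb. In MED14-AID cells it was 28.6% (2 of 7) when a reciprocal overlap of 50% was required, and 25.0% (2 of 8) with the widened windows. The water-only share was 33.3% (2 of 6) with the −log10 q minimum of 5 in both lists. It was 16.7% (1 of 6) with reciprocal overlap or lists of equal length, and 14.3% (1 of 7) with the widened windows. The rises under the −log10 q minimum came from counterparts just below it. These were PHLDA1-2 and KLF6-3 with DMSO (4.30 and 4.09), and IER3-3 and PHLDA1-4 with water and Nutlin-3a (4.71 and 4.66).

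To ask what was left at these genes after loss of MED14, water lists were set against auxin lists. IER3-4 alone overlapped an auxin peak, which is 1 of 6 water peaks (16.7%, 3.01 to 56.4%), beside 9.50% of the list. With Nutlin-3a it was 1 of 7 (14.3%, 2.57 to 51.3%), beside 9.004%. PHLDA1-1, at rank 88 of 463 with water the next strongest of the group, had no auxin peak with or without Nutlin-3a, nor had the other regions. Among all peaks above the median of the water lists, 16.0% and 15.7% overlapped an auxin peak. For the windows the counts there were 1 of 4 and 1 of 3.

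Counterparts in water-treated MED14-AID cells were found for 5 of 12 WT DMSO peaks (41.7%, 19.3 to 68.0%), beside 33.3% of the list. With Nutlin-3a, 6 of 13 (46.2%, 23.2 to 70.9%) had one, beside 33.2%. Of the DMSO peaks above their list's median by −log10 q, 4 of 8 had a counterpart, beside 52.4% of all peaks above it. For Nutlin-3a peaks above the median it was 5 of 7, beside 55.3%. The overlapping peaks were all at IER3 and PHLDA1. All 3 WT DMSO peaks at IER3 and all 4 WT Nutlin-3a peaks there had a counterpart, 2 of 4 at PHLDA1 had one in either pair, and none at FOSL1 or KLF6 had. The DMSO share was below that of the whole list without the IER3 window (22.2%, 2 of 9). With a reciprocal overlap of 50% it was 25.0% (3 of 12), and the whole list's share under that rule is not given here. The cell line differs together with the mock treatment and the number of libraries behind a list, and these cannot be told apart.

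**Figure D4:**
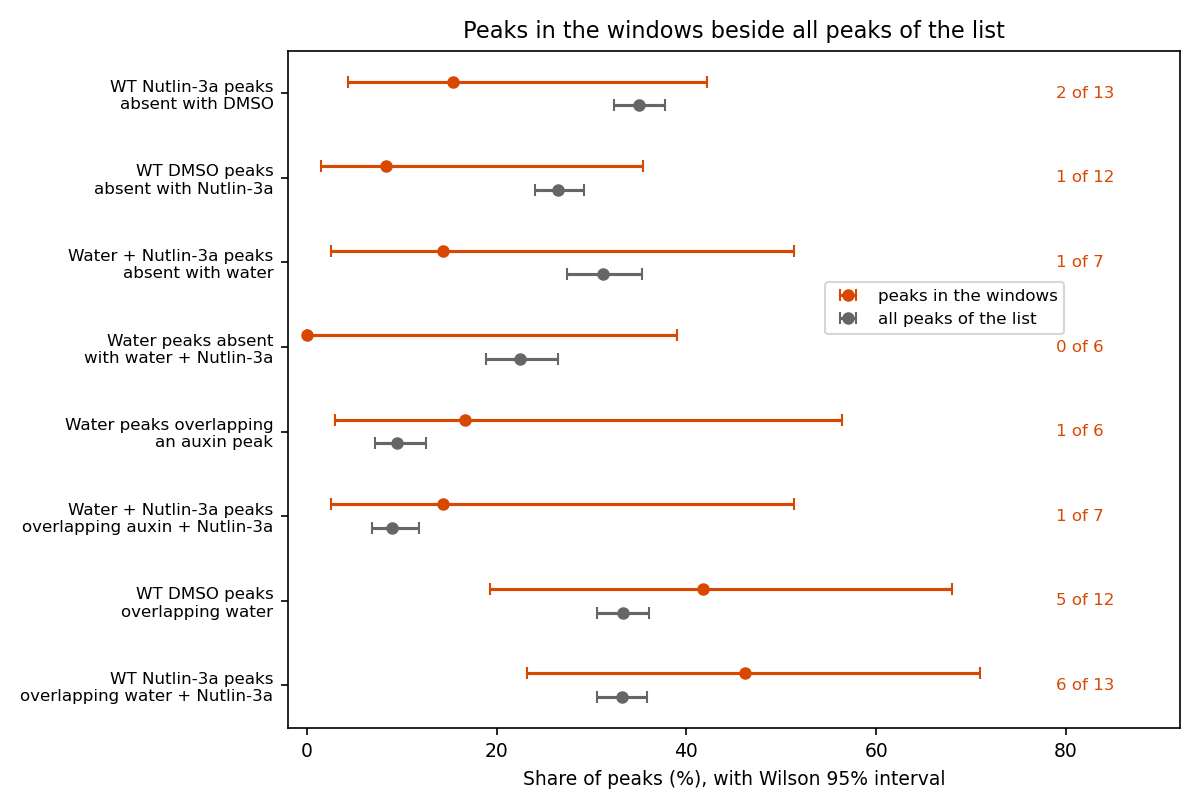
Share of peaks (x axis, %) counted in each of the 8 comparisons (y axis), for the peaks in the windows and for all peaks of the list, with Wilson 95% intervals and the counts for the windows at the right. The intervals of the windows are wide, with 6 to 13 peaks each, and all 8 include the share of the whole list.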

How the data were processed

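MED1 ChIP-seq peaks were listed for 6 conditions. The submitters' processing notes name Bowtie 0.12.9, MACS2 2.1.2 and the build hg19, with settings not given in the sources used here. The deposited fold is a ratio of a peak over background from the authors' caller, and the deposited −log10 values used are those of its q. Peak names in the WT lists hold the word merged, per the files. Windows and gene lists were chosen with earlier results of these data known. All regions of the windows are named. A peak counted as shared when 1 bp or more of it was covered by the complete other list, with Wilson 95% intervals. Peaks in a list are not replicates. The overlap code was tested on simulated data from the WT DMSO list (300 of 300 copied peaks recovered, 0 others called shared) and against bedtools 2.31.1 (0 of 16 counts different). Python 3.11.15, scipy 1.17.1, numpy 2.4.6 and matplotlib 3.10.9 were used. Coordinates are 1-based in hg19. The reference tables are of GRCh38, so exons, introns and promoters were not assigned to peaks, and a planned count of other AP-1 and ERK genes was not made. Alternatives changed the overlap rule, the −log10 q minimum, list length, the windows and stitching.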

Additional observations from a re-analysis of the deposited data

How the results depend on the processing

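With 1 list per condition, no replicate could be left out. No paired analysis was possible because no result comes from a test. Of the shares, 53 stayed within their 95% intervals under an alternative and 19 did not. Leaving out the IER3 window was added after the data were seen. The median place in the list, by −log10 q or by fold, stayed within its wide interval in the 20 alternatives run, yet moved from 43.5% to 11.7% (central 50 kb) and 27.6% (widened windows) with water and Nutlin-3a, and from 54.3% to 34.5% in WT Nutlin-3a in the central 50 kb and without IER3. Shares rest on 1 to 20 peaks, so a single peak moves them. With a minimum −log10 q of 10 in the first list, the Nutlin-only share was 0% in WT and 0% in MED14-AID cells, the DMSO-only share 0%, and the share of WT Nutlin-3a peaks found in MED14-AID cells 71.4%. With a minimum of 5 in both lists the latter was 23.1%, and the DMSO-only share and the Nutlin-only share of MED14-AID cells were 0%. With lists of equal length that last share was 0%, WT Nutlin-3a peaks were in MED14-AID cells at 83.3%, and the share kept under auxin was 100% (1 of 1) with and without Nutlin-3a. By stitched region the DMSO-only and the MED14-AID Nutlin-only shares were 0%. In the central 50 kb of the windows, which leaves out IER3-4, 0% was kept under auxin, with or without Nutlin-3a. Without the IER3 window the kept shares were 0%, the Nutlin-only share in MED14-AID cells 0% and the share of WT Nutlin-3a peaks in MED14-AID cells 22.2%. Of the peak counts per list, 20 stayed within 1.5 times and 10 did not. These were 7 stretches for WT DMSO and 4 for water with Nutlin-3a by stitching, 20 peaks for WT Nutlin-3a with windows widened by 50 kb, 4 for water with Nutlin-3a at −log10 q of at least 5, 0 for each auxin list in the central 50 kb, and, without IER3, 2 for each water list and 0 for each auxin list. Minima, equal lengths, narrower windows and stitching leave fewer units by design, and what else moved these values was not tested.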
